A study of Mus musculus with 20 samples.

Results

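The endosomal Toll-like receptor pathway was followed in mouse abdominal skin through 9 genes named for their role in it: the receptors Tlr7, Tlr8, Tlr9 and Tlr3, the chaperone Unc93b1, the adaptor Myd88, the kinase Irak4 and the transcription factors Irf5 and Irf7. Each gene was read from the array feature that carries its symbol alone, and of several such features the one with the highest mean over all arrays would have been taken. Of the 9 genes 7 had such a feature, 1 each, among the 22180 genes analysed. The only feature of Irf5 also names Tnpo3, and no feature of the probe table names Irak4, so neither gene was analysed here.

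Toll-like receptors of the endosome sense nucleic acids that a cell has taken up. TLR7 and TLR8 sense single-stranded RNA, TLR9 senses DNA with unmethylated CpG and TLR3 senses double-stranded RNA, and UNC93B1 carries these receptors from the endoplasmic reticulum to the endosome. TLR7, TLR8 and TLR9 signal through MyD88 and IRAK4 to NF-kappaB, IRF5 and IRF7, which drive inflammatory cytokines and type I interferons, whereas TLR3 signals through TRIF. Imiquimod (IMQ) is a small-molecule agonist of TLR7, and imiquimod cream is widely used on mouse skin as a model of psoriasis-like inflammation. Plasmacytoid dendritic cells are known for TLR7 and TLR9, and macrophages and monocytes for TLR7, TLR8 and TLR13.

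Skin came from 20 C57/B6 mice aged 9 weeks, 5 in each of 4 groups formed by diet and cream. Mice on control chow (CD) or on a high fat diet (HFD) received either vehicle or 62.5 mg per day of a 5% imiquimod cream on shaved abdominal skin for 5 days, and skin was taken 24 h after the last dose. The groups are named by diet and cream (CD-IMQ for chow with imiquimod), and no group carries a genetic change. How long the diets were fed and what the vehicle contained are not stated in the labels. Whole skin was measured, so in every result below more cells of a type and more RNA per cell cannot be told apart.

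All values are deposited log2 array values, so equal differences are equal folds, and levels of different genes are not set against each other. Array medians lay between 2.86 and 3.04, and every value of the 7 members was above them. Array CD-vehicle 3 held 28.4% of its group's squared distance from the group mean over all genes, HFD-vehicle 3 held 42.8% and HFD-IMQ 4 held 30.0%, the largest share in each of those groups. The label of skin was checked against 9 keratinocyte markers, of which 0 were at or below the array medians in any group. Their summed signal was 2550 to 4750 in CD-vehicle and 4790 to 7650 in HFD-vehicle skin, against 7780 to 10600 in CD-IMQ and 7660 to 10800 in HFD-IMQ skin. Hair shaft and inner root sheath markers set HFD-vehicle skin apart, with a summed signal of 2050 to 12900 against 76.4 to 797 in CD-vehicle skin, 72.5 to 92.9 in CD-IMQ skin and 65.3 to 232 in HFD-IMQ skin. The part of either marker list in the member results was not tested.

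Because 6 of the 7 measured members had higher mean levels in imiquimod-treated skin of both diets and Tlr3 did not, promoters are shown for 5 measured members from a RefSeq table (GRCm38.p6), from 250 bases before to 50 bases after the start. The table held 7 of the 9 members and no entry for Tlr7 or Unc93b1, and the windows of Irak4 and Irf5, which have no values, are not shown. Each window was searched on both strands for an interferon regulatory factor element (GAAA, any 2 bases, GAAA), a kappaB site (GGG, any 2 bases, TTTCC) and an AP-1 site (TGANTCA), and matches are in capitals.
Tlr8, no match, chrX:167264280-167264579, minus strand: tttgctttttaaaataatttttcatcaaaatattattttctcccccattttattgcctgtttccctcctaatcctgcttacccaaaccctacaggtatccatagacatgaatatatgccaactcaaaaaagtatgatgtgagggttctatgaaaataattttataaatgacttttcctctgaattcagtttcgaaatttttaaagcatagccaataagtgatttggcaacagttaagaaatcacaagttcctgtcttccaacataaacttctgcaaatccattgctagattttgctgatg
Tlr9, AP-1 match, chr9:106222348-106222647, plus strand: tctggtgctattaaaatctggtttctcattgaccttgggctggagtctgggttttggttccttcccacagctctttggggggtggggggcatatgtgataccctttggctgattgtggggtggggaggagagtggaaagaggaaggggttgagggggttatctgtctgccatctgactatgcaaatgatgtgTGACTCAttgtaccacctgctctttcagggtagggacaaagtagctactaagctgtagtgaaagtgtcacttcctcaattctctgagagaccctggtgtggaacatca
Myd88, interferon regulatory factor element match, chr9:119339969-119340268, minus strand: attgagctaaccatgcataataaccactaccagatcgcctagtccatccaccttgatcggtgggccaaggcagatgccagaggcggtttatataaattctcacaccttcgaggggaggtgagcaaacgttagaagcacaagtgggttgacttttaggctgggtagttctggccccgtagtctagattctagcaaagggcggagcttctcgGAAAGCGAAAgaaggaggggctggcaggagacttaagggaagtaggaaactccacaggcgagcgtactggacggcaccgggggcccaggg
Irf7, no match, chr7:141266375-141266674, minus strand: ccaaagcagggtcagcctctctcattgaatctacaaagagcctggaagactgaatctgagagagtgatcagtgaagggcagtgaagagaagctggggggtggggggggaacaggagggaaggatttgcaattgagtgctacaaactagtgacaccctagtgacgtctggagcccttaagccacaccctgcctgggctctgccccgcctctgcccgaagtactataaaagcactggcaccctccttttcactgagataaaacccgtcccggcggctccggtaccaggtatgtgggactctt
Tlr3, kappaB match, chr8:45410331-45410630, minus strand: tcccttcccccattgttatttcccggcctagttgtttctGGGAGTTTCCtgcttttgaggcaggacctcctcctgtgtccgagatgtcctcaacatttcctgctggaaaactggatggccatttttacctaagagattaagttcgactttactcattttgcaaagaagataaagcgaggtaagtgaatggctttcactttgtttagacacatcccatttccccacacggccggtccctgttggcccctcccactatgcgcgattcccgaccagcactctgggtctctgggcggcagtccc
The Myd88 window held GAAAGCGAAA 40 bases before the start, and 3.44% of all 32851 promoter windows of this length held that motif. Tlr9 held TGACTCA 58 bases before the start, and 7.81% of windows held an AP-1 site. Tlr3 held GGGAGTTTCC 211 bases before the start, and 1.63% of windows held a kappaB site. The windows of Tlr8 and Irf7 held none of these motifs, and a match is a description of letters, not of a bound site.

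Tlr7, the receptor for imiquimod, was higher after imiquimod in both diets, and the difference passed the test in HFD-fed mice. In CD-vehicle skin its log2 values were 4.95, 5.29, 4.55, 5.21 and 5.22, and in CD-IMQ skin they were 5.49, 5.73, 5.21, 5.31 and 5.81. The groups overlapped, because CD-IMQ 3 lay among the vehicle mice. The mean log2 level was 5.04 ± 0.31 (SD, n = 5) in CD-vehicle and 5.51 ± 0.26 (SD, n = 5) in CD-IMQ skin, a log2 difference of 0.46 ± 0.17 (SE) with a limma adjusted p of 0.0786. A gene is called here when its Benjamini-Hochberg adjusted p over all genes is below 0.05, so Tlr7 was not called in CD-fed mice. In HFD-vehicle skin the log2 values of Tlr7 were 5.27, 5.10, 4.63, 5.38 and 4.94, and in HFD-IMQ skin they were 5.99, 5.79, 5.51, 6.07 and 6.19. Every HFD-IMQ mouse lay above every HFD-vehicle mouse. The log2 level rose by 0.85 ± 0.17, a 1.80-fold change (limma adjusted p = 0.00224), from 5.06 ± 0.29 to 5.91 ± 0.27. The call held without HFD-vehicle 3 (log2 change 0.74, adjusted p = 0.00803) and without HFD-IMQ 4 (0.81, adjusted p = 0.00658).

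By mean log2 level the groups ordered as CD-vehicle, HFD-vehicle, CD-IMQ and HFD-IMQ for Tlr7. The vehicle groups differed by 0.02 ± 0.17 with a 95% interval of -0.33 to 0.37, and the imiquimod groups by 0.40 ± 0.17 with a limma adjusted p of 0.41. Neither pair of neighbours passed the test, and HFD-vehicle against CD-IMQ was not tested.

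Tlr8, the closest relative of Tlr7 and its neighbour on chromosome X with 0 protein-coding genes starting between them, followed the same order of group means. Its log2 values were 5.23, 6.02, 5.58, 6.06 and 5.73 in CD-vehicle and 5.94, 6.32, 6.34, 6.0 and 6.09 in CD-IMQ skin. These groups overlapped, and the log2 difference of 0.42 ± 0.15 was not called (limma adjusted p = 0.0847). The HFD-vehicle mice had log2 values of 5.97, 5.71, 5.26, 5.79 and 6.05, and the HFD-IMQ mice 6.70, 6.63, 6.47, 6.66 and 6.69. The HFD-IMQ values were the most tightly grouped of the 4 groups and lay above every mouse of the other groups. Tlr8 rose by 0.87 ± 0.15 on the log2 scale in HFD-fed mice, a 1.83-fold change (limma adjusted p = 0.000733), and by 0.75 without HFD-vehicle 3 (adjusted p = 0.0021). In CD-fed mice the difference passed the test without CD-vehicle 4 (adjusted p = 0.046) or without HFD-vehicle 3 (adjusted p = 0.0477), and under quantile normalization both Tlr7 (adjusted p = 0.0334) and Tlr8 (adjusted p = 0.0357) passed it.

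Tlr9, the CpG DNA receptor, had the smallest called difference among the receptors that are members. Its log2 values were 3.81, 3.76, 3.61, 3.98 and 3.61 in CD-vehicle and 3.98, 3.89, 4.29, 4.10 and 4.02 in CD-IMQ skin. The log2 difference of 0.30 ± 0.14 was not called (limma adjusted p = 0.189). In HFD-vehicle skin the log2 values were 4.24, 3.82, 3.68, 3.89 and 3.91, and in HFD-IMQ skin 4.91, 4.20, 4.42, 4.08 and 4.25. HFD-IMQ 1 was the highest of all 20 mice, and HFD-vehicle 1 lay above 2 of the HFD-IMQ mice. Tlr9 rose by 0.46 ± 0.14 on the log2 scale (1.38-fold, limma adjusted p = 0.0476). This call was lost in 14 of the 20 fits that each left out 1 array, with adjusted p from 0.0519 to 0.156, the highest without HFD-IMQ 1. It held without CD-vehicle 3, CD-vehicle 4, CD-IMQ 3, HFD-vehicle 1, HFD-IMQ 2 or HFD-IMQ 4, and was lost with arrays centred on their medians (0.051), with an intensity trend (0.0524) and with only the compared groups fitted (0.131).

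Tlr3, the receptor of double-stranded RNA that does not use MyD88, was the only measured member with lower mean levels after imiquimod in both diets, and neither difference was called. The CD-vehicle mice had log2 values of 4.81, 5.27, 4.85, 5.64 and 5.89, and the CD-IMQ mice 5.05, 5.16, 4.88, 4.67 and 4.96. CD-vehicle was the most widely spread group for Tlr3, with an SD of 0.48 against 0.17 to 0.20 in the other groups. The log2 difference was -0.35 ± 0.17 with a 95% interval of -0.70 to 0.01 (limma adjusted p = 0.221). In HFD-vehicle skin Tlr3 had log2 values of 5.31, 5.12, 4.81, 5.14 and 5.29, and in HFD-IMQ skin 5.01, 4.82, 4.98, 5.29 and 5.09, which overlapped throughout. The log2 difference in HFD-fed mice was -0.10 ± 0.17, with a 95% interval of -0.45 to 0.25.

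**Figure D1:**
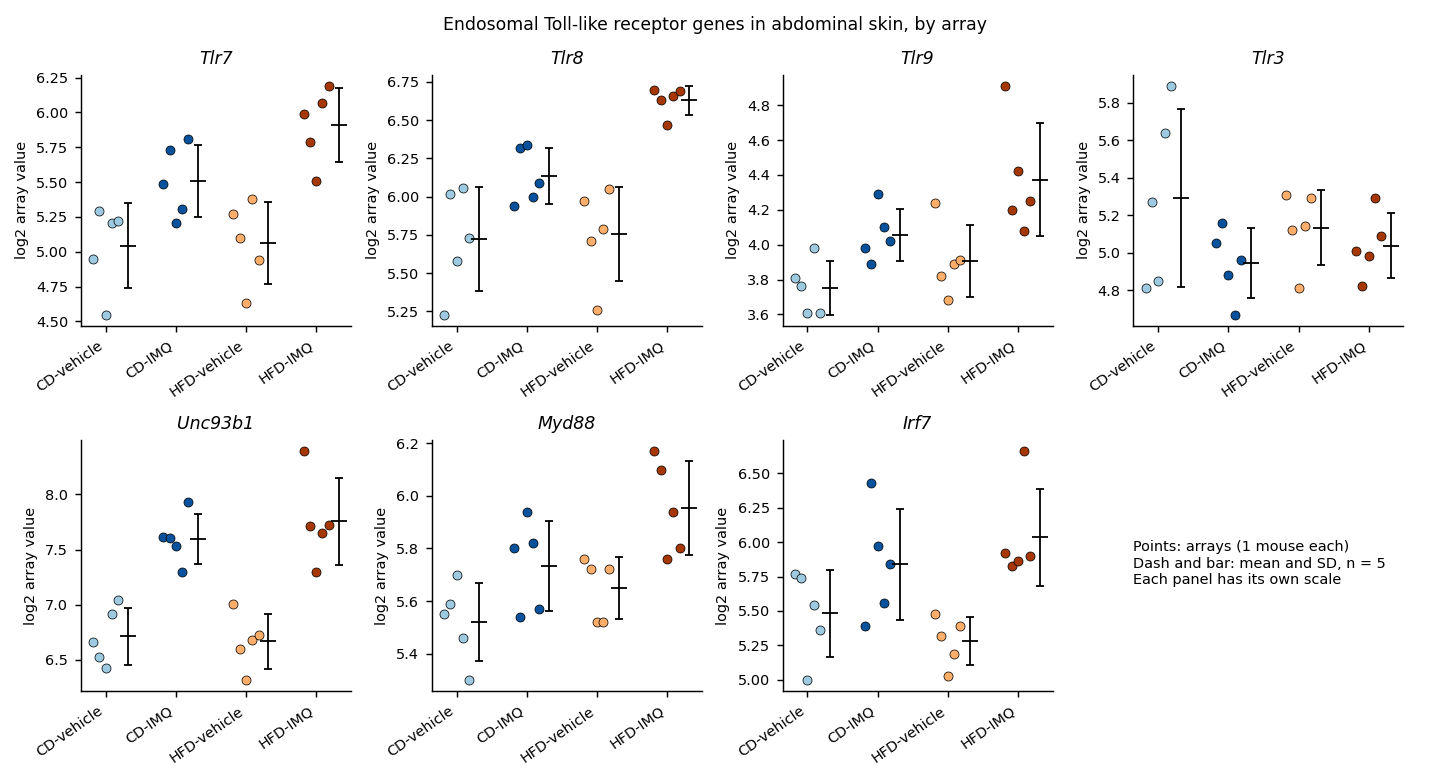
Deposited log2 value of each of the 7 measured genes (vertical axis) in every mouse (points), by group of diet and cream, with the group mean and SD. The HFD-IMQ mice lie above all HFD-vehicle mice for Tlr7, Tlr8, Unc93b1 and Irf7, and the CD-IMQ mice above all CD-vehicle mice for Unc93b1.

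Unc93b1, the chaperone that carries the nucleic acid receptors to the endosome, was the member that rose most, and the only one called in both diets. Its log2 values were 6.66, 6.53, 6.43, 6.92 and 7.04 in CD-vehicle skin and 7.61, 7.60, 7.53, 7.30 and 7.93 in CD-IMQ skin. The groups did not overlap, and the log2 level rose by 0.88 ± 0.17, a 1.84-fold change (limma adjusted p = 0.00142). In HFD-vehicle skin the log2 values were 7.01, 6.60, 6.32, 6.68 and 6.73, and in HFD-IMQ skin 8.39, 7.71, 7.30, 7.65 and 7.72. Again no value overlapped, with HFD-IMQ 1 the highest mouse of the series, and the rise was 1.08 ± 0.17 on the log2 scale, a 2.12-fold change (limma adjusted p = 0.000229). In fits that each left out 1 array the highest adjusted p was 0.00668 in CD-fed and 0.000955 in HFD-fed mice.

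Myd88, the adaptor shared by TLR7, TLR8 and TLR9, moved little. Its log2 values were 5.55, 5.59, 5.70, 5.46 and 5.30 in CD-vehicle and 5.80, 5.54, 5.94, 5.82 and 5.57 in CD-IMQ skin. In HFD-vehicle skin they were 5.76, 5.72, 5.52, 5.52 and 5.72, and in HFD-IMQ skin 6.17, 6.10, 5.76, 5.94 and 5.80. The groups overlapped in CD-fed mice, and in HFD-fed mice HFD-IMQ 3 and HFD-vehicle 1 were at the same level to 2 decimals. Log2 differences of 0.21 ± 0.11 (limma adjusted p = 0.247) in CD-fed and 0.31 ± 0.11 (limma adjusted p = 0.122) in HFD-fed mice were not called.

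Irf7, the transcription factor of the interferon arm of the pathway, rose in HFD-fed mice. In CD-vehicle skin its log2 values were 5.77, 5.74, 5.00, 5.54 and 5.36, and in CD-IMQ skin 5.39, 6.43, 5.97, 5.56 and 5.84. These groups overlapped, and the log2 difference of 0.36 ± 0.19 was not called (limma adjusted p = 0.261). The HFD-vehicle values were 5.48, 5.32, 5.03, 5.19 and 5.39, and the HFD-IMQ values 5.92, 5.83, 5.86, 6.66 and 5.90. All HFD-IMQ mice were above all HFD-vehicle mice, and HFD-IMQ 4 stood clear of the other 4 mice of its group. The log2 level rose by 0.75 ± 0.19, a 1.69-fold change (limma adjusted p = 0.0153). Without HFD-IMQ 4 the rise was 0.60 (adjusted p = 0.0457), and without HFD-vehicle 3 it was 0.69 (adjusted p = 0.0427).

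Of the 7 measured members 1 rose and 0 fell in CD-fed mice, where 3.91% of all genes tested were called higher and 7.02% lower, and Unc93b1 was also the 1 member higher without overlap, against 3.78% of all genes. In HFD-fed mice 5 rose and 0 fell, where 3.65% of all genes were called higher and 2.24% lower. Without overlap 4 members were higher there (Tlr7, Tlr8, Unc93b1 and Irf7), against 3.67% of all genes. The median log2 difference over the 7 members was 0.36 in CD-fed and 0.75 in HFD-fed mice, against medians over all genes of 0.02 and 0.00. Averaged over both diets, which uses the same mice and lends no independent support, 6 of the 7 rose and Tlr3 was not called (-0.22 ± 0.12, limma adjusted p = 0.279), where 5.48% of all genes were called higher. In that average Unc93b1 rose by 0.98 ± 0.12, Tlr7 by 0.66 ± 0.12, Tlr8 by 0.64 ± 0.11, Irf7 by 0.55 ± 0.13 and Tlr9 by 0.38 ± 0.10 on the log2 scale. Myd88 rose by 0.26 ± 0.08 (limma adjusted p = 0.0289), a call lost without CD-vehicle 5 (0.0611), CD-IMQ 3 (0.0596), HFD-vehicle 3 (0.0512), HFD-vehicle 4 (0.0566), HFD-IMQ 1 (0.0604) or HFD-IMQ 2 (0.055).

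Diet alone did not move a measured member past the threshold. In vehicle-treated skin limma called 0 of 7, with 0 at an unadjusted p below 0.05, where 2.18% of all genes were called, and the log2 differences of HFD against CD ran from -0.20 for Irf7 to 0.15 for Tlr9. In imiquimod-treated skin all 7 mean levels were higher in HFD-fed mice, by 0.09 to 0.49, and limma called 0, with 3 at an unadjusted p below 0.05 (Tlr7, Tlr8 and Tlr9). It called 0% of all genes there, with 2289 at an unadjusted p below 0.05. Other settings called 0 to 5 genes of the whole table in that comparison, and leaving out HFD-IMQ 4 called 20. Tlr8 showed the widest gap there, with all 5 HFD-IMQ mice above all 5 CD-IMQ mice and a log2 difference of 0.49 ± 0.15 (limma adjusted p = 0.317), and 0.992% of all genes were higher without overlap. Tlr9 differed by 0.32 ± 0.14 (limma adjusted p = 0.431) and Myd88 by 0.22 ± 0.11 (limma adjusted p = 0.503).

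The imiquimod difference was larger in HFD-fed mice for 6 of the 7 members and less negative for Tlr3, but the difference between diets was not called by limma for any of them, with 1 of 7 at an unadjusted p below 0.05 (Tlr8). The test of diet by imiquimod gave a log2 value of 0.46 ± 0.22 for Tlr8 (95% interval 0.01 to 0.90, limma adjusted p = 0.304). For Tlr7 it gave 0.38 ± 0.24 (95% interval -0.11 to 0.87, limma adjusted p = 0.443) and for Irf7 0.40 ± 0.27 (limma adjusted p = 0.482). Unc93b1, called in both diets, had the value 0.21 ± 0.24 with a 95% interval of -0.29 to 0.70. The test called 0.663% of all genes, 105 higher and 42 lower, or 69 higher and 51 lower under quantile normalization. The calls of Tlr7, Tlr8, Tlr9 and Irf7 in HFD-fed but not in CD-fed mice are therefore not shown to differ between the diets.

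**Figure D2:**
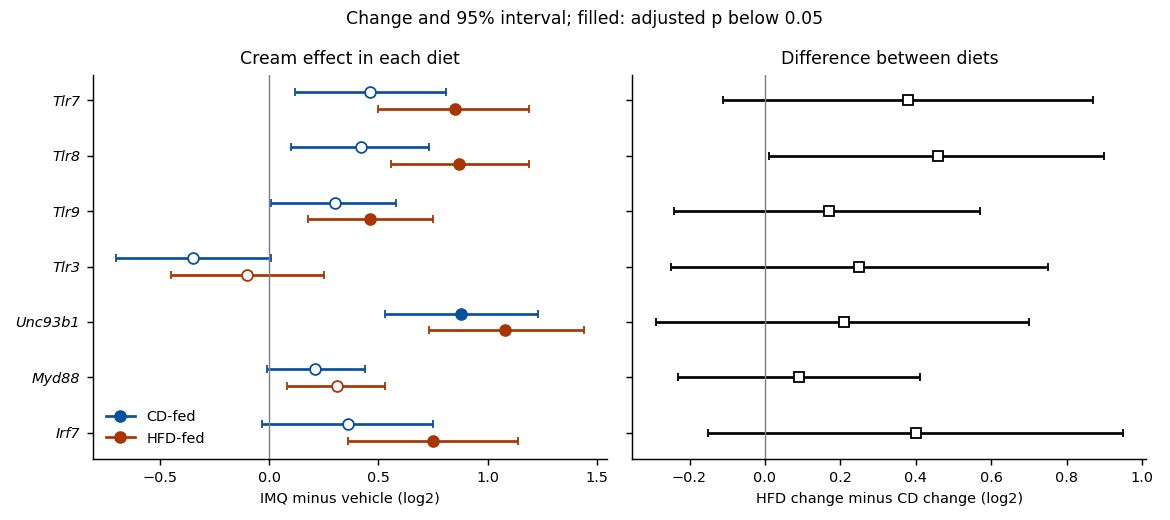
Log2 change of the 7 measured genes with its 95% interval: imiquimod against vehicle within each diet on the left, and the HFD change minus the CD change on the right, with filled markers where the adjusted p was below 0.05. Filled markers are 1 of 7 in CD-fed mice (Unc93b1) and 5 of 7 in HFD-fed mice, and 0 of 7 on the right.

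The other Toll-like receptors were led by Tlr13, the mouse endosomal receptor of bacterial ribosomal RNA. Its log2 values were 4.18, 4.20, 4.24, 4.71 and 4.24 in CD-vehicle and 5.68, 5.90, 5.90, 5.69 and 5.72 in CD-IMQ skin. In HFD-vehicle skin they were 4.91, 4.62, 3.88, 4.76 and 4.70, and in HFD-IMQ skin 6.64, 6.18, 6.15, 5.97 and 6.47. In both diets every imiquimod mouse was above every vehicle mouse, with rises of 1.46 ± 0.16 (limma adjusted p = 2.49e-06) and 1.71 ± 0.16 (limma adjusted p = 3.91e-07) on the log2 scale. Of the 8 receptors in this list 2 rose and 1 fell in CD-fed mice, and 4 rose and 0 fell in HFD-fed mice, with median log2 differences of 0.06 and 0.32. Over all genes 3.91% were called higher and 7.02% lower in CD-fed mice, and 3.65% higher and 2.24% lower in HFD-fed mice.

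Tlr1 and Tlr6, cell surface partners of the lipopeptide receptor TLR2, were the next. Tlr1 rose by 1.36 ± 0.20 in HFD-fed mice (limma adjusted p = 9.14e-05) and by 0.67 ± 0.20 in CD-fed mice (limma adjusted p = 0.0294), the latter held in 14 of 20 fits without 1 array. Tlr6 rose by 0.95 ± 0.20 and Tlr2 by 0.45 ± 0.13 in HFD-fed mice (limma adjusted p = 0.00379 and 0.0387), the latter held in 14 of 20 fits. Tlr4, the lipopolysaccharide receptor, had log2 differences of -0.17 ± 0.15 and 0.06 ± 0.15. Tlr11, a receptor of protozoan profilin, fell by 0.61 ± 0.17 on the log2 scale in CD-fed mice (limma adjusted p = 0.0265, held in 15 of 20 fits), from a mean of 2.79 to 2.18. Both means lay below the median of every array, and the gene is left out by the filter on dim genes. Tlr6 also was near the array medians, with mean levels of 2.59 in HFD-vehicle and 3.54 in HFD-IMQ skin.

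Genes for folding, trafficking and proteolytic processing of these receptors were called in part. Of 13 measured, 4 rose and 1 fell in CD-fed mice, and 6 rose and 1 fell in HFD-fed mice, with median log2 differences of 0.14 and 0.54. For comparison, 3.91% of all genes were called higher and 7.02% lower in CD-fed mice, and 3.65% and 2.24% in HFD-fed mice. Pld4, an endolysosomal exonuclease that degrades nucleic acid ligands, rose by 0.88 ± 0.20 (limma adjusted p = 0.00506) in CD-fed and 1.14 ± 0.20 (limma adjusted p = 0.000691) in HFD-fed mice. Lgmn, the asparagine endopeptidase that takes part in cleaving endosomal receptors, rose by 0.63 ± 0.14 and 0.89 ± 0.14. Slc15a4, the endolysosomal transporter needed for TLR7 and TLR9 signalling, rose by 0.75 ± 0.14 in HFD-fed mice (limma adjusted p = 0.00108), and 5430427O19Rik, the mouse gene of its partner TASL, which recruits IRF5, had a called difference of 0.55 ± 0.14 (limma adjusted p = 0.0172) between mean levels of 1.63 and 2.18, below the median of every array. In CD-fed mice their log2 differences were 0.29 ± 0.14 and -0.03 ± 0.14, not called.

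Hsp90b1, the endoplasmic reticulum chaperone that folds Toll-like receptors, went the other way, falling by 0.46 ± 0.11 on the log2 scale in CD-fed mice (limma adjusted p = 0.00758) and by 0.37 ± 0.11 in HFD-fed mice (limma adjusted p = 0.0482, held in 7 of 20 fits without 1 array). Its partner Cnpy3 was not called, with differences of 0.14 ± 0.12 and 0.26 ± 0.12. Among the cathepsins Ctsl rose by 0.44 ± 0.13 in CD-fed mice (limma adjusted p = 0.0257), and Ctss rose by 0.55 ± 0.17 in HFD-fed mice (limma adjusted p = 0.0499), a call held in 5 of 20 fits. Pld3, the relative of Pld4, rose by 0.52 ± 0.15 in CD-fed mice (limma adjusted p = 0.0288), and the co-receptor Cd14 rose by 0.85 ± 0.19 in HFD-fed mice (limma adjusted p = 0.00779). The CD count of 4 rising genes was 2 without CD-vehicle 1 or without CD-IMQ 5, and the HFD count of 6 was 4 without HFD-IMQ 1 or without HFD-IMQ 5.

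Below the receptors, 17 adaptors and kinases were measured, of which 0 rose and 2 fell in CD-fed mice and 3 rose and 0 fell in HFD-fed mice. The shares over all genes were 3.91% higher and 7.02% lower in CD-fed mice, and 3.65% higher and 2.24% lower in HFD-fed mice. Both CD counts are therefore near the shares over all genes. Pik3ap1, an adaptor that links Toll-like receptors to PI3K, rose by 1.29 ± 0.21 in HFD-fed mice (limma adjusted p = 0.000343). Btk, a tyrosine kinase of B and myeloid cells, rose there by 1.0 ± 0.18 (limma adjusted p = 0.000941), and Tbk1, the kinase that phosphorylates IRF3, by 0.52 ± 0.11 (limma adjusted p = 0.00388). Irak1, which acts after IRAK4, fell by 0.58 ± 0.17 on the log2 scale in CD-fed mice (limma adjusted p = 0.0281, held in 14 of 20 fits without 1 array) and Map3k7, which encodes the kinase TAK1, fell by 0.47 ± 0.12 (limma adjusted p = 0.0131). The ubiquitin ligase Traf6 was not called in either diet, with 0.20 ± 0.14 and 0.15 ± 0.14. The CD count of 2 was 1 without any of CD-vehicle 1, 4 or 5 or CD-IMQ 2, 3 or 5.

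Of 10 further interferon regulatory and NF-kappaB factors 1 rose and 1 fell in CD-fed mice, and 1 rose in HFD-fed mice. Of all genes 3.91% were called higher and 7.02% lower in CD-fed mice, and 3.65% higher in HFD-fed mice. Irf8, a factor of myeloid and plasmacytoid dendritic cells, rose by 0.81 ± 0.17 in HFD-fed mice (limma adjusted p = 0.00357) and by 0.52 ± 0.17 in CD-fed mice (limma adjusted p = 0.0469, held in 6 of 20 fits without 1 array). Irf3, the factor that acts after TLR3, had log2 differences of -0.20 ± 0.12 and 0.08 ± 0.12 and was not called. Irf2 fell by 0.46 ± 0.13 on the log2 scale in CD-fed mice (limma adjusted p = 0.0284, held in 15 of 20 fits).

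**Figure D3:**
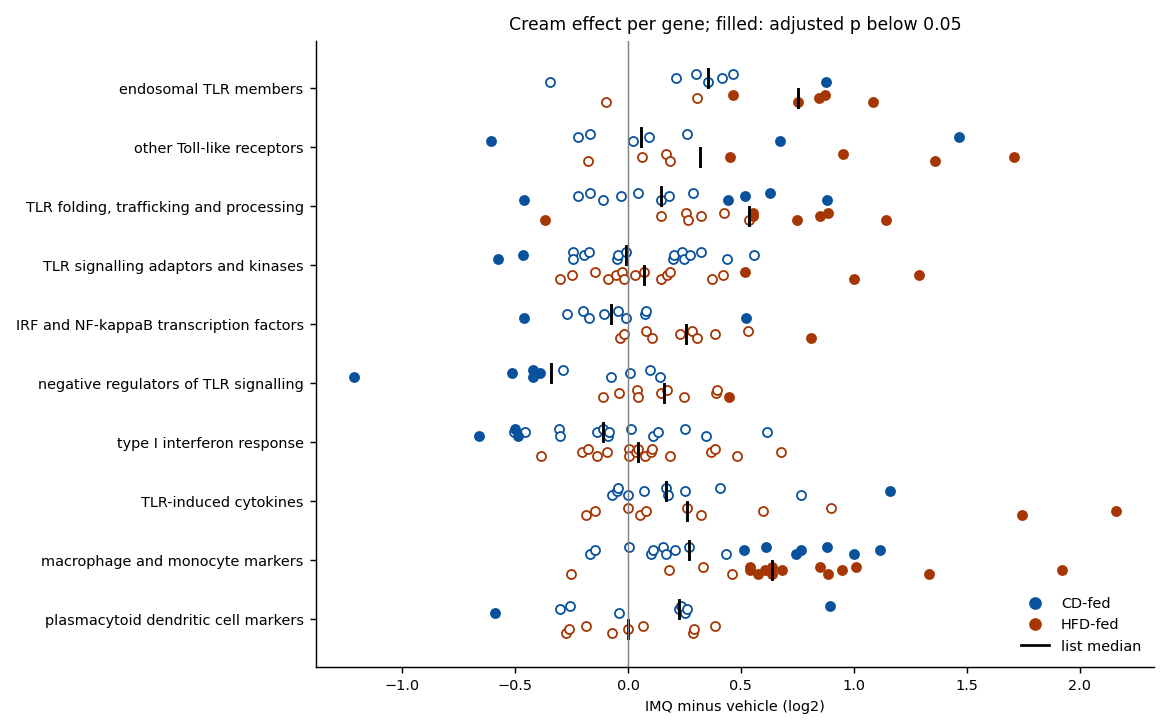
Log2 change with imiquimod (horizontal axis) of every measured gene of the pathway lists and of the macrophage and plasmacytoid dendritic cell markers, CD-fed and HFD-fed mice in different colours, filled where the adjusted p was below 0.05, with a bar at each list's median. The median of the endosomal receptor genes is 0.36 in CD-fed and 0.75 in HFD-fed mice, and that of the negative regulators is -0.34 and 0.16.

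Negative regulators of the pathway held genes whose response to imiquimod differed between the diets. In CD-fed mice 0 of 10 rose and 5 fell after imiquimod (median log2 difference -0.34), and in HFD-fed mice 1 rose and 0 fell (median 0.16). The shares of all genes called higher and lower were 3.91% and 7.02% in CD-fed mice, and 3.65% and 2.24% in HFD-fed mice. The vehicle groups differed too, with 2 of 10 lower in HFD-fed mice, where 2.18% of all genes were called in either direction. Of the 10 estimates of that diet difference 1 was above 0 (median -0.27). Tnfaip3, which encodes the NF-kappaB inhibitor A20, had log2 values of 5.87, 5.41, 5.74, 5.32 and 5.44 in CD-vehicle and 4.37, 4.68, 4.33, 4.11 and 4.24 in CD-IMQ skin. It was 4.20, 4.80, 4.74, 4.50 and 4.75 in HFD-vehicle and 5.24, 4.76, 4.53, 4.16 and 4.49 in HFD-IMQ skin. CD-vehicle skin was thus above all 3 other groups. Tnfaip3 fell by 1.21 ± 0.17 on the log2 scale in CD-fed mice (limma adjusted p = 4.16e-05), differed by 0.04 ± 0.17 in HFD-fed mice, and was lower in HFD-vehicle than in CD-vehicle skin by a log2 difference of -0.96 ± 0.17 (limma adjusted p = 0.003). Its test of diet by imiquimod was called at 1.25 ± 0.24 (limma adjusted p = 0.0154), in each of 20 fits without 1 array too.

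Nfkbia, which encodes the inhibitor IkappaB-alpha, had log2 values of 7.57, 7.55, 7.76, 7.68 and 7.20 in CD-vehicle, 7.08, 7.19, 7.23, 7.04 and 7.11 in CD-IMQ, 6.81, 6.82, 6.96, 6.75 and 6.90 in HFD-vehicle and 7.78, 7.39, 7.12, 7.01 and 7.18 in HFD-IMQ skin. HFD-vehicle mice were below all mice of the other groups. It fell by 0.42 ± 0.13 on the log2 scale in CD-fed mice (limma adjusted p = 0.0318) and rose by 0.45 ± 0.13 in HFD-fed mice (limma adjusted p = 0.034), with a test of diet by imiquimod of 0.87 ± 0.18 (limma adjusted p = 0.0245). The fall was held in 13 of 20 fits without 1 array and lost under quantile normalization (0.0764). The rise was held in 14 of 20, lost without HFD-vehicle 1, 2, 4 or 5 or HFD-IMQ 1 or 2 (0.0509 to 0.115), under quantile normalization (0.0623) and with only the compared groups (0.0883). The interaction was lost without CD-IMQ 4 (0.0544), HFD-vehicle 1 (0.0518) or HFD-IMQ 2 (0.0539), and under quantile normalization (0.0536). Tbk1 was also called by this test, at 0.69 ± 0.15 (limma adjusted p = 0.0385), with mean log2 levels of 6.32 in CD-vehicle, 6.15 in CD-IMQ, 5.96 in HFD-vehicle and 6.48 in HFD-IMQ skin. That call was held in 8 of 20 fits without 1 array and was lost under quantile normalization (0.109). The other negative regulators that fell in CD-fed mice were Irak3 (-0.51 ± 0.16), Cyld (-0.42 ± 0.13) and Tank (-0.39 ± 0.11), and the count of 5 was 2 under quantile normalization or without CD-vehicle 1, 2 or 3, 3 without CD-vehicle 4 or 5, and 1 without CD-IMQ 4 or 5.

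**Figure D4:**
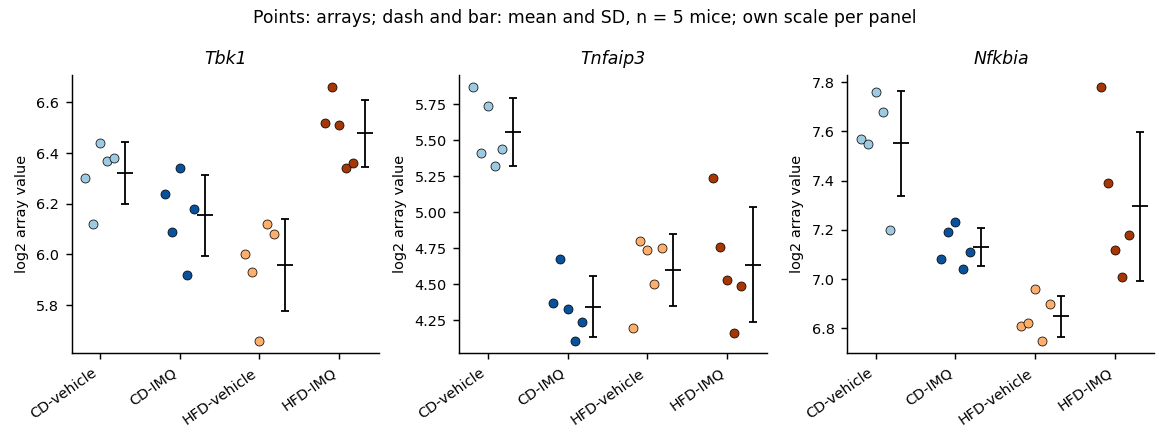
Deposited log2 values of Tbk1, Tnfaip3 and Nfkbia in every mouse by group, with the group mean and SD. Tnfaip3 is highest in the 5 CD-vehicle mice, at 5.32 to 5.87, and Nfkbia is lowest in the 5 HFD-vehicle mice, at 6.75 to 6.96.

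Downstream, type I interferon response genes were not called higher within either diet. Of 17 measured, 0 rose and 3 fell in CD-fed mice, and limma called 0 in HFD-fed mice, with 4 at an unadjusted p below 0.05. Of all genes 3.91% were called higher and 7.02% lower in CD-fed mice, and 3.65% higher in HFD-fed mice. A count of 0 rising genes among 17 is therefore near the share over all genes. The median log2 differences of the 17 genes were -0.11 and 0.05. Ifit2, an antiviral RNA-binding protein, fell by 0.66 ± 0.15 on the log2 scale in CD-fed mice (limma adjusted p = 0.00494), Usp18, an inhibitor of interferon receptor signalling, by 0.50 ± 0.14 and Ifit1 by 0.49 ± 0.14. The count of 3 was 2 without CD-IMQ 1 and 1 without CD-IMQ 4. In HFD-fed mice 1 gene was called higher without CD-IMQ 3, HFD-vehicle 5, HFD-IMQ 2 or HFD-IMQ 3 and 1 lower without CD-vehicle 4, and in CD-fed mice 1 was called higher without CD-IMQ 1 or HFD-IMQ 1. Rsad2, which encodes viperin, had log2 differences of 0.62 ± 0.22 and 0.68 ± 0.22, not called in either diet, and rose by 0.65 ± 0.15 in the average of the diets (limma adjusted p = 0.00594). Isg15 was not called, with 0.35 ± 0.18 and 0.37 ± 0.18, nor was Mx1, with -0.11 ± 0.15 and 0.07 ± 0.15. Mean levels of Mx1 (2.08 to 2.34) lay below the median of every array, and those of Isg15 (2.93 to 3.34) about at it or little above. In a group 2 to 4 of the 17 genes were at or below the medians.

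Cytokines that Toll-like receptors induce were called in few cases. Of 11 measured, 1 rose in CD-fed and 2 in HFD-fed mice, and 0 fell, where 3.91% and 3.65% of all genes were called higher. Ccl3, a chemokine of myeloid cells, rose by 1.16 ± 0.34 in CD-fed mice (limma adjusted p = 0.0296, held in 15 of 20 fits without 1 array) and by 1.75 ± 0.34 in HFD-fed mice (limma adjusted p = 0.00209). Mean levels of Ccl3 in vehicle-treated skin, 2.62 in CD-fed and 2.67 in HFD-fed mice, lay below the median of every array. The HFD groups overlapped for Ccl3, at 2.39 to 3.01 against 2.99 to 5.44. Il1b rose by 2.16 ± 0.43 in HFD-fed mice (limma adjusted p = 0.00237), where the groups overlapped, at 3.57 to 5.56 against 5.08 to 7.59, and differed by 0.77 ± 0.43 in CD-fed mice. Tnf, Il6, Il12b and Il23a were not called in either diet, with log2 differences between -0.15 and 0.26. Mean levels of Il6 (1.72 to 1.78) and Il23a (2.24 to 2.31) lay below the median of every array and those of Il12b (2.72 to 2.98) about at it, and 5 to 7 of the 11 genes were at or below the medians in a group. Ifnb1, which encodes interferon beta, had mean levels of 1.58 to 1.91 in the 4 groups, below the median of every array, and was not called in either diet.

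Part of the macrophage and monocyte markers rose with the members. Of 17 macrophage and monocyte markers 7 rose in CD-fed and 13 in HFD-fed mice, where 3.91% and 3.65% of all genes were called higher. In this list 0 fell, and 0 were at or below the array medians. Their summed signal was 4010 to 4860 in CD-vehicle, 4900 to 5990 in CD-IMQ, 2740 to 4270 in HFD-vehicle and 5420 to 7590 in HFD-IMQ skin. Adgre1, a macrophage surface receptor, rose by 1.12 ± 0.18 and 1.92 ± 0.18, and Itgam by 1.0 ± 0.19 and 1.33 ± 0.19 on the log2 scale. Mrc1, Cx3cr1, Ccr2 and Ly6c2 were not called in either diet, and Ly6c2 had log2 differences of -0.145 in CD-fed and -0.252 in HFD-fed mice. The HFD count was 8 without HFD-IMQ 1 and 7 with only the compared groups fitted. The part of these markers in the rise of Tlr7, Tlr8, Tlr13, Unc93b1 and Irf7 was not tested.

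Neutrophil markers rose too, 5 of 11 in CD-fed and 7 of 11 in HFD-fed mice, with summed signals of 94.5 to 144 and 114 to 246 in CD-vehicle and HFD-vehicle skin against 1270 to 1770 and 1470 to 2330 in CD-IMQ and HFD-IMQ skin. In imiquimod-treated skin most of that sum came from S100a8 and S100a9, calprotectin genes that inflamed keratinocytes also express. Their mean log2 levels were 3.28 and 3.95 in CD-vehicle, 9.41 and 9.52 in CD-IMQ, 4.91 and 5.10 in HFD-vehicle and 9.70 and 9.86 in HFD-IMQ skin. Ly6g, Mmp9, Trem1 and Itgb2l were not called in either diet, and 3 to 6 of the 11 markers were at or below the array medians. Csf3r, the receptor of granulocyte colony-stimulating factor, rose by 1.11 ± 0.18 in CD-fed and 1.46 ± 0.18 in HFD-fed mice. Of 9 plasmacytoid dendritic cell markers 1 rose and 1 fell in CD-fed mice, limma called 0 in HFD-fed mice with 1 at an unadjusted p below 0.05, and 3 were at or below the array medians in every group. Their summed signal was 317 to 712 in CD-vehicle, 646 to 781 in CD-IMQ, 500.0 to 842 in HFD-vehicle and 671 to 918 in HFD-IMQ skin. By mean level the largest part of that sum was Ly6d, a gene that epidermis also expresses. Its mean log2 levels were 7.99, 8.88, 8.76 and 9.06 in the same order, against 3.97, 3.38, 3.35 and 3.09 for Siglech. Siglech, their defining surface lectin, fell by 0.59 ± 0.18 on the log2 scale in CD-fed mice (limma adjusted p = 0.0382, held in 15 of 20 fits without 1 array) and was not called in HFD-fed mice (-0.26 ± 0.18), and Ly6d rose by 0.89 ± 0.28 in CD-fed mice, held in 7 of 20 fits. Of 6 B cell markers 5 were at or below the array medians in both vehicle groups, 4 in CD-IMQ and 2 in HFD-IMQ skin, 1 rose in each diet, and Cd79a was not called in either. Of the remaining lists, 2 of 9 Langerhans and dendritic cell, 5 of 8 fibroblast, 2 of 7 adipocyte and 1 of 8 endothelial markers fell after imiquimod in CD-fed mice, and 1 of 9 T and NK cell markers rose. In HFD-fed mice 0 of 9, 2 of 8, 1 of 7, 0 of 8 and 1 of 9 of the same lists fell, and 1 endothelial and 1 T and NK cell marker rose. Of all genes 3.91% were called higher and 7.02% lower in CD-fed mice, and 3.65% higher and 2.24% lower in HFD-fed mice. Counts of 1 called marker in a list, as for plasmacytoid dendritic and B cells, are near these shares. The 2 called Langerhans and dendritic cell genes were H2-Aa and H2-Ab1. Cd207, the defining marker of that list, was not called in either diet, with log2 differences of -0.324 and -0.377. Keratinocyte markers rose in 7 of 9 cases and fell in 1 in CD-fed mice, against 2 and 1 in HFD-fed mice, and hair markers fell in 5 of 9 and 7 of 9 cases. Several of these counts turned on single arrays. In CD-fed mice the fibroblast count was 3 without CD-vehicle 1 or CD-IMQ 3, the adipocyte count 4 without CD-IMQ 2, the hair count 3 without CD-IMQ 2 or without either of CD-vehicle 1 and 2, and the B cell count 0 without CD-vehicle 3, 4 or 5 or CD-IMQ 1, 4 or 5. In HFD-fed mice the adipocyte count was 0 without HFD-vehicle 2 or HFD-IMQ 5, the endothelial rise 4 without HFD-IMQ 4, and the keratinocyte rise 1 without HFD-vehicle 5 or HFD-IMQ 1, 2 or 5. The fibroblast count there was 1 in 8 of 20 fits without 1 array, the T and NK cell fall was lost in 8, and the Langerhans count of 0 was 1 or 2 in some. The part of these lists in the member results was not tested either.

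Within groups, mice with more Tlr7 also had more Unc93b1 and Tlr3. Relations were computed over deviations of the 20 mice from their group means, with 100000 permutations within groups, for the 6 other measured members. Deviations of Tlr7 and Tlr3 correlated at r = 0.63 (two-sided permutation p = 0.0052, adjusted over 6 relations 0.025) and rho = 0.62 (permutation p = 0.0068, adjusted 0.041). Tlr7 and Unc93b1 correlated at r = 0.61 (permutation p = 0.0084, adjusted 0.025) and rho = 0.58 (permutation p = 0.015, adjusted 0.044). Both relations rested in part on CD-vehicle 3 and HFD-vehicle 3, the arrays lowest in Tlr7 for their groups, which also stood apart over all genes. Without these 2 arrays r was 0.44 for Tlr3 (permutation p = 0.042, not adjusted) and 0.49 for Unc93b1, which no longer passed (permutation p = 0.085). Without the arrays of highest Tlr7 level, HFD-IMQ 4 and HFD-IMQ 5, r was 0.61 and 0.70.

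Tlr8 and Irf7 gave r = 0.50 (permutation p = 0.051, adjusted 0.088; rho = 0.47, permutation p = 0.06, adjusted 0.098) and r = 0.46 (permutation p = 0.059, adjusted 0.088; rho = 0.44, permutation p = 0.07, adjusted 0.098), which did not pass. They were 0.29 and 0.24 without CD-vehicle 3 and HFD-vehicle 3. Tlr9 showed almost no relation with Tlr7, at r = 0.08 (permutation p = 0.77, adjusted 0.77; rho = 0.01, permutation p = 0.98, adjusted 0.98). Myd88 was the only member with a negative value, r = -0.33 (permutation p = 0.19, adjusted 0.23; rho = -0.43, permutation p = 0.082, adjusted 0.098).

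**Figure D5:**
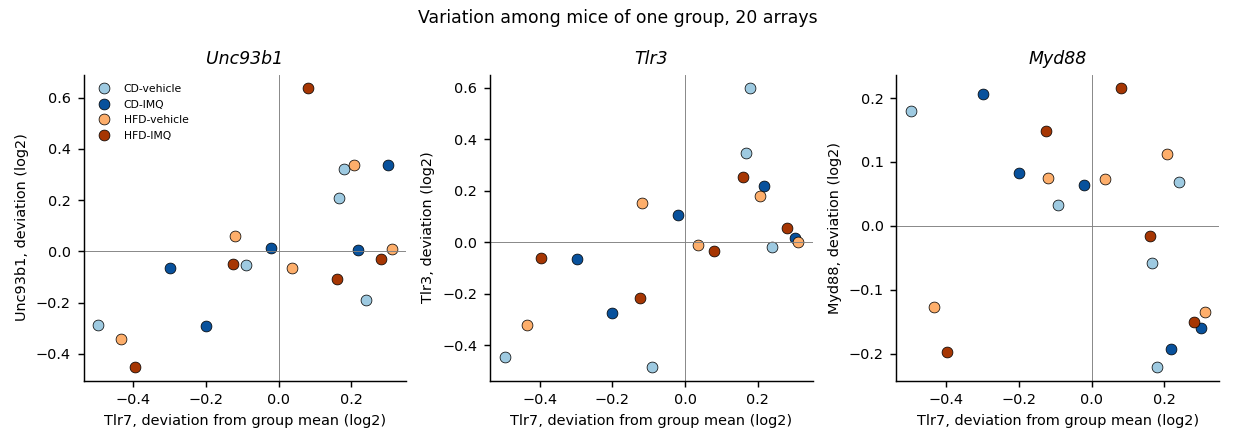
Deviation of each of the 20 mice from its group's mean log2 level, Tlr7 on the horizontal axis and Unc93b1, Tlr3 or Myd88 on the vertical axis, coloured by group. Correlations are 0.61, 0.63 and -0.33, and the CD-vehicle and HFD-vehicle points farthest to the left are CD-vehicle 3 and HFD-vehicle 3.

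The genes whose log2 levels followed Tlr7 most closely over all 20 arrays were taken by Pearson's r, leaving out the members and names of predicted genes, small RNAs and the olfactory and vomeronasal receptor families. This r includes the differences between groups and is a description over arrays with shared groups. The first was Il10rb, a chain of the interleukin-10 receptor, at r = 0.924, with mean log2 levels of 6.47 in CD-vehicle, 6.79 in CD-IMQ, 6.32 in HFD-vehicle and 6.93 in HFD-IMQ skin. It was followed by Lipn, an epidermal lipase, at 0.908, and by Pla2g7, the secreted hydrolase of platelet-activating factor, at 0.906. Adap2 had r = 0.897, C1qb, a complement chain made by macrophages, 0.891, and Ly86, a partner of the receptor-like protein RP105, 0.889. The tetraspanin Cd53 had 0.888, the endothelial sialomucin Emcn 0.884, the C-type lectin Cd209g 0.879 and the lysosomal acid lipase Lipa 0.875. Among the members Unc93b1 had 0.856 and Tlr8 0.844, and Tlr3 0.068. Within groups, over the deviations of the same mice, these 10 genes had r between 0.687 for Pla2g7 and 0.867 for Il10rb. These deviations were part of the r by which the genes were chosen, so the values within groups lend no independent support.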

How the data were processed

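Total RNA (300 ng, Trizol) from abdominal skin of 20 mice was hybridised to Affymetrix arrays, per the labels' protocols. The deposited values are log2 values from RMA with the affy package, per the submitters' processing notes. No source used here gives software versions, scan batches or the set of arrays normalised jointly. Groups were taken from the labels, which call the samples of a group biological replicates.

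Of 41345 features 23521 carried 1 gene symbol, 1814 several and 16010 none, and 23328 matched a RefSeq gene. Each of 22180 genes was read from its single-symbol feature with the highest mean, without a filter on dim genes. Group means were fitted with limma 3.58.1 (R 4.3.3) over all 20 arrays, followed by eBayes and Benjamini-Hochberg adjustment over all genes of a comparison, in 6 comparisons. A gene was called at an adjusted p below 0.05. Errors are SE for differences and SD for groups.

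The members and the gene lists were chosen with earlier results of these data known. The text names all measured members, up to 4 called genes of a list in a comparison by size of change, defining markers, and the 10 genes most correlated with Tlr7, other than members, predicted genes, small RNAs and olfactory or vomeronasal receptors. A few other list genes that were not called were named after their values were seen. Of 8 relations planned for Tlr7, 6 could be run. Samples with the same replicate number formed 30 pairs between groups, and 4 of these deviated together with a correlation above 0.1 (range -0.217 to 0.32), so replicate numbers were not treated as pairs. On simulated data with 200 changed genes among 22180, the CD comparison recovered 37% of log2 changes of 0.5 and 96% of 1, and the interaction 12% and 73%. The number of arrays limits the precision, with a median SE of 0.136 for a difference between groups. Alternatives were quantile normalization, median centring, a dim-gene filter, the mean of all features, only the compared groups, a replicate block, array weights, an intensity trend and leaving out each array. Tables and figures were made with Python 3.11.15, numpy 2.4.6, pandas 2.3.3 and matplotlib 3.10.9.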

Additional observations from a re-analysis of the deposited data

Results flagged for a closer look

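Irf7 in HFD-IMQ 4 had a log2 value of 6.66, far from the other 4 mice of its group, with a gap of 0.89 of the group's range against a critical value of 0.71. It was the 1 such value among 28 groups of members tested, where chance gives about 1 in 20.

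The imiquimod response of 3 pathway genes was called as different between the diets by the test of the difference itself, which called 0.663% of all genes. They were 1 of 17 adaptors and kinases and 2 of 10 negative regulators. The test called 0 of the 7 measured members, 0 of 8 other Toll-like receptors and 0 of 13 folding, trafficking and processing genes. It also called 0 of 10 further transcription factors, 0 of 17 interferon response genes and 0 of 11 cytokines. The log2 difference, HFD change minus CD change, was 0.69 for Tbk1 (limma adjusted p = 0.0385), 1.25 for Tnfaip3 (limma adjusted p = 0.0154) and 0.87 for Nfkbia (limma adjusted p = 0.0245). For all 3 genes HFD-vehicle skin had a lower mean than CD-vehicle skin. Only the call of Tnfaip3 held in each fit without 1 array. That of Tbk1 was lost in most of these fits, under quantile normalization and with the replicate block. That of Nfkbia was lost under quantile normalization and without CD-IMQ 4, HFD-vehicle 1 or HFD-IMQ 2.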

How the results depend on the processing

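The calls of Unc93b1 in both diets and of Tlr7, Tlr8 and Irf7 in HFD-fed mice held under all alternatives run, including the omission of each array. The number of measured members called in CD-fed mice was 3 under quantile normalization and 2 with the replicate block, and 1 to 2 when 1 array was left out. The replicate block called Tlr7 in CD-fed mice (adjusted p = 0.0219), although the numbers did not mark pairs, and lost the interaction of Tbk1 (0.0703). The number of genes called for HFD against CD in imiquimod-treated skin was 5 under quantile normalization and 1 each with the dim-gene filter, the mean of all features and the intensity trend, and 0 to 20 when 1 array was left out, with 20 without HFD-IMQ 4. In vehicle-treated skin that number was 137 with only the compared groups and 231 (without CD-vehicle 3) to 574 when 1 array was left out. The interaction called 57 (without CD-IMQ 4) to 198 genes when 1 array was left out. Signs turned for small values that were not called: the interaction of Myd88 was -0.02 under quantile normalization. When 1 array was left out, the diet difference in vehicle skin ran from -0.11 to 0.13 for Tlr7, from -0.09 to 0.16 for Tlr8 and from -0.13 to 0.04 for Unc93b1, that of Unc93b1 in imiquimod-treated skin from 0.00 to 0.27, and r of Tlr7 with Tlr9 from -0.05 to 0.18. The cause of these changes was not tested. On simulated data with 200 changed genes, most log2 changes of 1 and few of 0.5 were recovered. The imiquimod comparisons called more genes than that, 2424 in CD-fed and 1306 in HFD-fed mice. The adjusted p depends on how many genes change, so the simulated shares do not give the recovery in these 2 comparisons. Smaller member differences may have been missed, but how many was not tested.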
